A study of Mus musculus with 2 samples.

Results

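The genes described here are 48 mouse genes of the G1/S transition and DNA replication, chosen by name: replication licensing, fork, nucleotide supply and S-phase repair genes. The deposited table gave values for 37 of the 48, out of 15239 genes in all. The other 11 (Mcm3, Cdc6, Cdc45, Gins1, Dscc1, Blm, Exo1, Rad51ap1, Uhrf1, Wdr76 and E2f8) have no entry in it and are not analysed here. Every gene in the table was above 0 in both libraries. The study sequenced mRNA of mammary basal cells of the mouse, the outer epithelial layer of the gland, in 2 libraries. One came from cells with a scrambled short hairpin RNA (Scramble control) and one from cells with a hairpin against Cdk14 (Cdk14-sh), a cyclin-dependent kinase that pairs with cyclin Y. The labels give no age, strain, time after the hairpin or number of animals, and only a single Cdk14 hairpin is named. They also disagree on the material, since MDA-MB-231 cells, which are human breast cancer cells, appear in the series' design and retinas in the extraction protocol; the sample labels were followed, and the identifiers are of mouse genes.

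With 1 library in each group, the differences below have no replicate check and carry no p-value. Levels are FPKM, in which fragments are scaled to gene length and to the library's total so that levels of different genes can be compared. Folds are plain ratios of FPKM. For the log2 ratio, 1 FPKM was added to the value of Cdk14-sh and to that of Scramble control, so low genes differ more than it shows. Parentheses after a ratio hold its 95% Clopper-Pearson (exact binomial) interval, from recovered fragment numbers; these intervals cover counting error only and compare these 2 libraries, not the conditions. The values corresponded to totals of 5093462 fragments for Scramble control and 5088593 for Cdk14-sh, if the commonest step in the values is 1 fragment. Cdk14 was at 0.713 FPKM in Cdk14-sh against 2.06 in Scramble control, 34.5% of the control level (26.0 to 45.9). In a mixture of cells, fewer cells of a kind and less RNA per cell cannot be told apart, and this holds for every level below.

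A cell that is to divide first loads pairs of the ring-shaped Mcm2-7 helicase onto its replication origins, a step called licensing. At the G1/S transition cyclin E and its kinase release E2F transcription factors from the retinoblastoma proteins, E2F raises the genes of S phase, and the loaded helicases are started by Cdc45, the GINS complex and Mcm10. Polymerases, the sliding clamp, nucleotide synthesis and histone supply then work together to copy DNA and chromatin. In most resting adult tissue these genes are low.

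Replication genes were neither all higher nor all lower in the Cdk14-sh library. Of the 37 genes, 34 averaged 1 FPKM or more across the libraries and were counted; Mcm10, Clspn and Ung did not. Their median log2 ratio was 0.35, beside 0.02 over all 12830 genes counted in the same way. Of the 34, 19 were above 0, where 51.4% of all genes were. At least 2-fold higher on the log2 scale were 7 of 34 (Mcm5, Mcm6, Prim1, Rfc4, Tyms, Hells and Cdca7), beside 14.2% of all genes. At least 2-fold lower were 3 of 34 (Ccne1, Rad18 and Rpa2), beside 13.5% of all genes. As shares of the 34, these are 20.6% and 8.82%. Of the 34, 8 were below 1 FPKM in Scramble control and passed the filter only through their Cdk14-sh level, as did 6.91% of all genes counted, and 6 of the 7 higher members are among them. In the other direction 2 passed only through their Scramble control level, as did 6.18% of all genes. The filter itself thus fixed the direction for these genes, and the counts describe the members without supporting a direction. The counting interval lay above 1 for 16 members (35.9% of all genes) and below 1 for 11 members (33.2% of all genes).

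**Figure D1:**
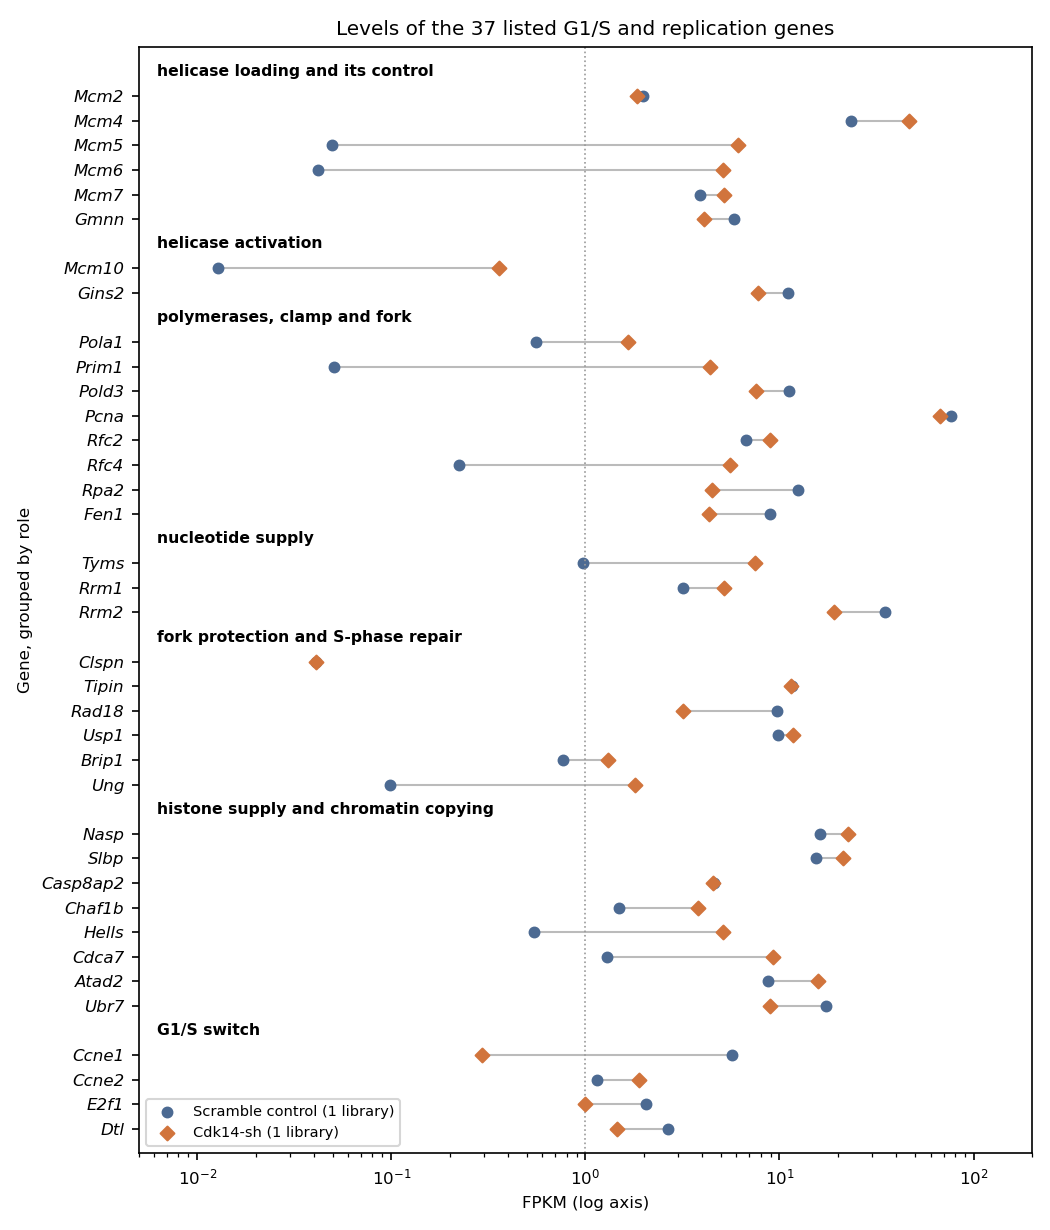
FPKM (log axis) of the 37 genes in Scramble control (circles) and Cdk14-sh (diamonds), 1 library each, grouped by role, with a dotted line at 1 FPKM. Mcm5, Mcm6 and Prim1 stood at 0.0508 FPKM or less in Scramble control and above 4 FPKM in Cdk14-sh, whereas Pcna was high in both.

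The higher genes were mostly of low abundance. Among 18 members with a mean of 1 to 5 FPKM, the median log2 ratio was 0.49 and 6 were at least 2-fold higher, where 18.5% of all genes in that range were, and 1 at least 2-fold lower, where 17.3% were. The 8 members below 1 FPKM in Scramble control and the 2 in Cdk14-sh all lie in this range. They include its 6 higher members and the lower one, Ccne1. The filter fixed their direction, so the median and counts of this range support none. Among 7 members from 5 to 10 FPKM the median was -0.51, with 1 at least 2-fold higher (15.2% of all genes in that range) and 2 at least 2-fold lower (15.5%). None of the 9 members at 10 FPKM or more differed 2-fold in either direction, where 10.1% of all genes in that range were higher and 9.30% lower. Over the 16 members that averaged 5 FPKM or more, the median was -0.10, on the other side of 0 from the median of all 34.

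**Figure D2:**
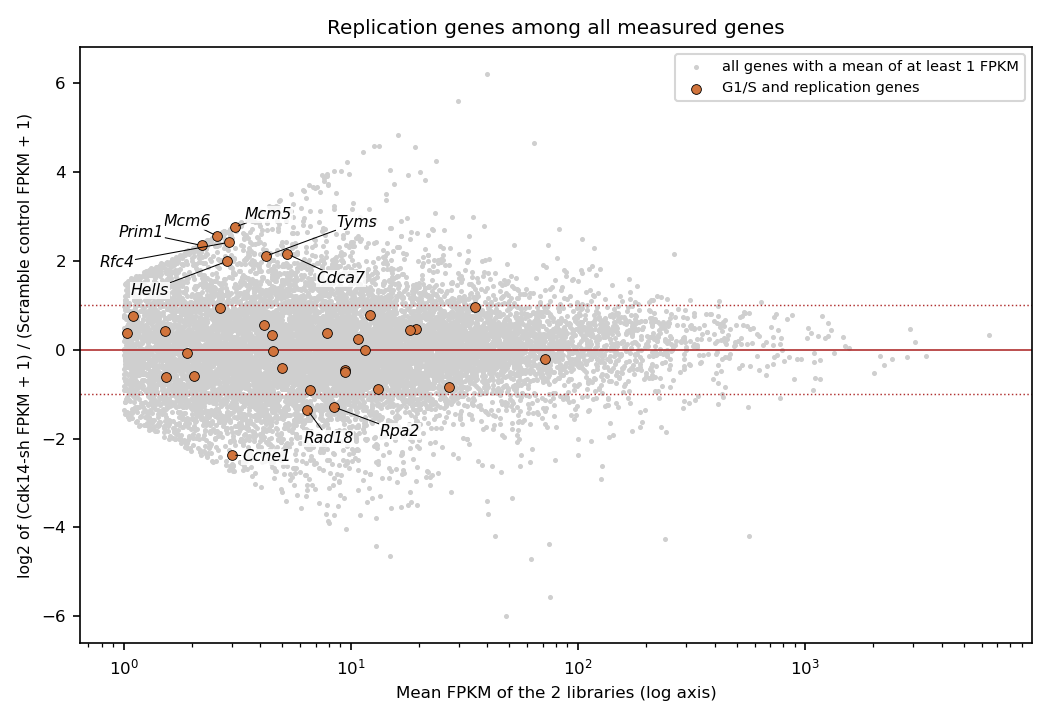
Each point is a gene: mean FPKM of the 2 libraries (log axis) against the log2 ratio with a pseudocount of 1 FPKM; grey, all genes averaging 1 FPKM or more; orange, the 34 counted replication genes, those at least 2-fold apart (dotted lines) named. Mcm5, Mcm6 and Prim1 lie on the slanting upper edge, which a gene reaches when its Scramble control value is near 0.

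The helicase subunits differed among themselves. Mcm2 to Mcm7 form one hexamer with a single copy of each, and 5 of the 6 genes had values. Mcm5 (chromosome 8, 75109569 to 75128439, plus strand, GRCm38) was at 0.0492 FPKM in Scramble control and 6.10 in Cdk14-sh, from 1 and 124 fragments. Its ratio was 124.1 (21.9 to 4941.5). Mcm6 (chromosome 1, 128331590 to 128359664, minus strand) was at 0.0421 and 5.14 FPKM, again from 1 fragment against 122, a ratio of 122.1 (21.5 to 4862.4). These genes were thus close to undetected in one library and at moderate levels in the other. Mcm4 was the most abundant subunit in both libraries, at 23.4 FPKM in Scramble control and 46.7 in Cdk14-sh, 1.99-fold higher (1.77 to 2.24). Mcm7 was at 3.89 and 5.15 FPKM, a ratio of 1.32 (0.992 to 1.76), and Mcm2 at 1.98 and 1.84 FPKM, a ratio of 0.929 (0.653 to 1.32). The intervals of Mcm2 and Mcm7 hold 1. Gmnn, which encodes geminin, the inhibitor that stops origins from being licensed again in S phase, was at 5.83 FPKM in Scramble control and 4.09 in Cdk14-sh, within counting error (0.431 to 1.14).

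The stretches before the start sites of Mcm5 and Mcm6 are shown because these were the members furthest apart between the libraries and because both hold letters that E2F factors are known to bind. They are the 250 bases before the RefSeq start site (GRCm38.p6), 5′ to 3′ on the gene's strand, at chr8:75109259-75109508 (plus) and chr1:128359706-128359955 (minus). Capitals mark matches to TTTCGCGC, TTTGGCGC, TTTCCCGC or TTTGCCGC on either strand.
Mcm5: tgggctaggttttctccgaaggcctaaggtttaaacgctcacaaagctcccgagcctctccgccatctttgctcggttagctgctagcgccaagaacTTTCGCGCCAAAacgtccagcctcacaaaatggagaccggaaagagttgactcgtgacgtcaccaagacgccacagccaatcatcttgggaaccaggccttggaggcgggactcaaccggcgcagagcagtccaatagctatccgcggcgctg
Mcm6: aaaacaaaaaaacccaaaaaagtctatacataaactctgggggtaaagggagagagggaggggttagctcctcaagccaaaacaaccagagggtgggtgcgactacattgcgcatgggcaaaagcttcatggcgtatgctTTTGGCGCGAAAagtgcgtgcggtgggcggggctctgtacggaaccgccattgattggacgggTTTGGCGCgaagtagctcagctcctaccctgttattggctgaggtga
In Mcm5 a match on each strand overlaps to form 1 element, and in Mcm6 such an overlapping pair is followed by a separate match 39 bases before the start site. Such a match describes the letters only and is not a measure of binding. Of the 48 genes, 37 were matched in that table by symbol, and 27.0% of them (10 genes) held such a match, beside 2.16% of all 27025 genes there and 3.97% of the genes counted in these libraries. The 2-fold classes here are on the log2 scale with its pseudocount. Matches were present in 4 of the 7 members at least 2-fold higher (Mcm5, Mcm6, Hells and Cdca7) and in none of the 3 at least 2-fold lower. Of those 7, 6 were below 1 FPKM in Scramble control, and of the 3, Ccne1 was below it in Cdk14-sh. The filter fixed the direction for these genes, so the classes cannot show whether matches go with a direction. Of 16 matched members within 2-fold, 4 held a match: Mcm7, Casp8ap2, Pola1 and Dtl. By plain ratio Pola1 was 2.96-fold higher. The letters CCAAT, bound by NF-Y, were in 64.9% of members on either strand, beside 37.5% of all genes. The letters TTTGAA, the element of many mitotic promoters, were in 16.2% of members, beside 18.3% of all genes and 41.7% of the G2/M list described below.

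Few genes of helicase activation had values. Gins2, a subunit of the GINS ring that joins the helicase to the polymerase, was at 11.0 FPKM in Scramble control and 7.77 in Cdk14-sh, 1.42-fold lower (1.16 to 1.75). Genes on the other strand overlap 67.3% of its exonic bases. Mcm10, which helps open the helicase ring at firing, was at 0.0128 and 0.358 FPKM, from 1 and 14 fragments, and was too low to be counted.

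At the fork itself the 8 counted genes were split evenly, with 4 above 0 (51.4% of all genes) and 4 below. Prim1, the catalytic subunit of primase, which lays down the RNA primer, was at 0.0508 FPKM in Scramble control and 4.37 in Cdk14-sh, from 1 and 86 fragments, a ratio of 86.1 (15.0 to 3439.1). Pola1, the catalytic subunit of the polymerase that extends the primer, was at 0.557 and 1.65 FPKM, 2.96-fold higher (1.86 to 4.87). Rfc4, a subunit of the loader that opens the clamp, was at 0.224 and 5.57 FPKM, from 2 and 43 fragments, with a ratio of 24.9 (5.61 to 183.4). Rfc2, in the same loader, was at 6.70 and 8.95 FPKM, 1.33-fold higher (1.12 to 1.60). These genes share the higher level in Cdk14-sh, though by very different folds. Prim1, Pola1 and Rfc4 were below 1 FPKM in Scramble control, so the filter fixed their direction, but not that of Rfc2. The shared direction and the even split above therefore support no direction.

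The remaining fork genes were lower in Cdk14-sh. Rpa2, which coats single-stranded DNA as part of the RPA trimer, was at 12.4 FPKM in Scramble control and 4.50 in Cdk14-sh, 2.76-fold lower (2.08 to 3.68). Fen1, the flap nuclease that trims Okazaki fragments, was at 8.94 and 4.32 FPKM, 2.07-fold lower (1.48 to 2.93), and genes on the other strand overlap 84.2% of its exonic bases. Pold3, an accessory subunit of the lagging-strand polymerase, was at 11.2 and 7.58 FPKM, 1.48-fold lower (1.22 to 1.80). Pcna, the sliding clamp itself and the most abundant of all members, was at 76.8 and 66.8 FPKM, 1.15-fold lower (1.05 to 1.26). The clamp gene also has 2 named pseudogenes that can share its reads. Fen1, at -0.90, did not reach 2-fold on the log2 scale with its pseudocount.

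**Figure D3:**
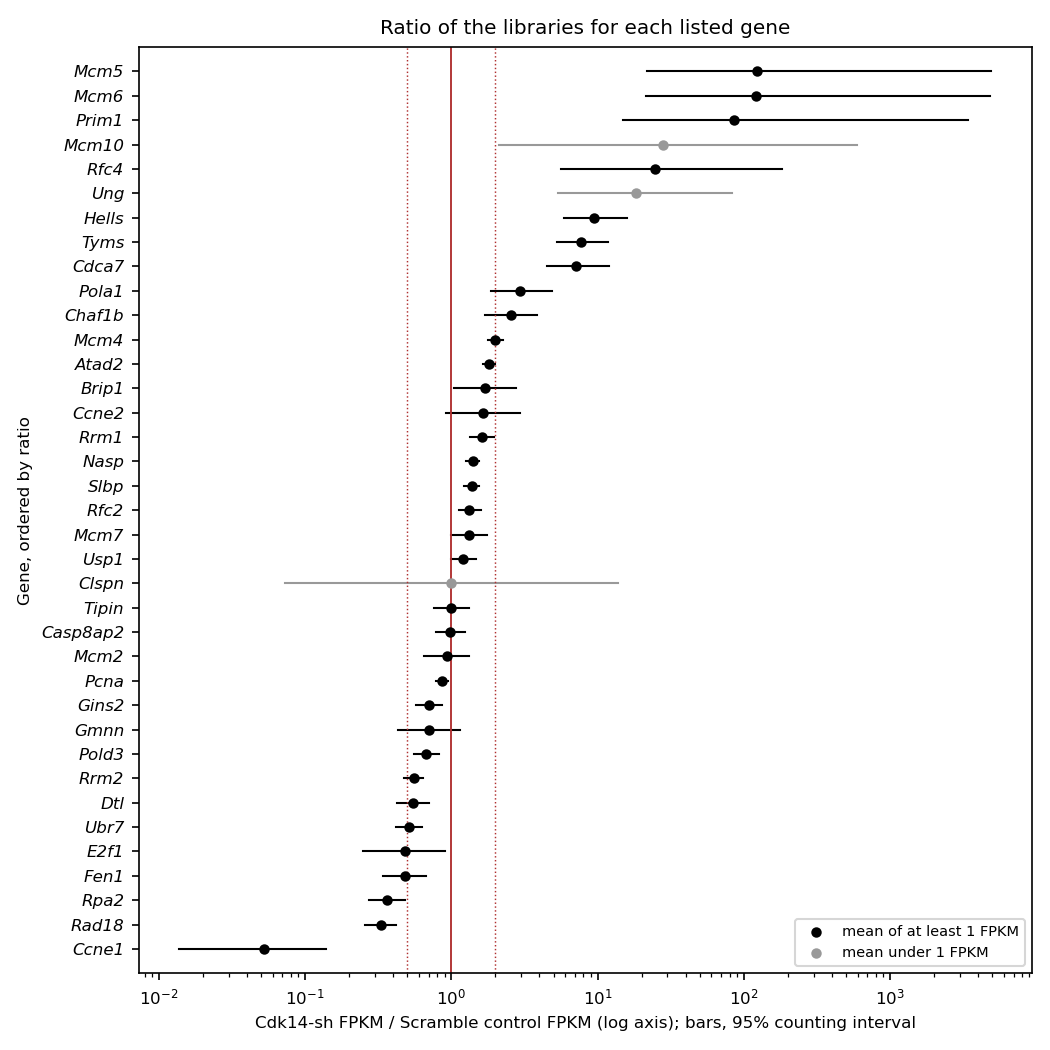
Cdk14-sh FPKM over Scramble control FPKM (log axis) for the 37 genes in order of the ratio, with 95% counting intervals as bars; dotted lines mark 2-fold, and grey marks genes with a mean under 1 FPKM. The 3 highest ratios, of Mcm5, Mcm6 and Prim1, have wide intervals and rest on 1 fragment each in Scramble control, and Ccne1 stands alone at the low end.

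Nucleotide supply went both ways. Tyms, thymidylate synthase, was at 0.967 FPKM in Scramble control and 7.47 in Cdk14-sh, from 30 and 232 fragments, 7.72-fold higher (5.28 to 11.7). Of the ribonucleotide reductase subunits, the large subunit Rrm1 was at 3.19 and 5.16 FPKM, 1.62-fold higher (1.34 to 1.96). The small S-phase subunit Rrm2 was at 34.9 and 19.2 FPKM, 1.81-fold lower (1.56 to 2.11). The enzyme needs both, and their levels moved towards each other, from 34.9 against 3.19 FPKM to 19.2 against 5.16.

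Genes of fork protection and S-phase repair included no member at least 2-fold higher among the 4 counted, beside 14.2% of all genes. At least 2-fold lower was 1 of them, beside 13.5%, and 4 genes are too few to set these counts apart from those shares. Rad18, the ubiquitin ligase that marks the clamp at stalled forks, was at 9.69 FPKM in Scramble control and 3.19 in Cdk14-sh, 3.04-fold lower (2.40 to 3.88). Usp1, which removes that mark, was at 9.83 and 11.8 FPKM, a ratio of 1.20 (0.988 to 1.47). Tipin, part of the fork protection complex, was at 11.6 and 11.5 FPKM (interval of the ratio 0.761 to 1.32). The intervals of Usp1 and Tipin hold 1, while that of Rad18 does not. The helicase gene Brip1 was at 0.764 and 1.30 FPKM, 1.70-fold higher (1.05 to 2.78). Below the filter, the uracil glycosylase gene Ung was at 0.0987 and 1.80 FPKM, from 3 and 50 fragments, a ratio of 18.2 (5.39 to 83.6). The checkpoint adaptor Clspn was at 0.0410 FPKM in both libraries, from 2 fragments each after rounding, too few to compare.

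Of the genes that supply histones and copy chromatin, 6 of 8 were above 0, beside 51.4% of all genes, and for 6 the counting interval lay above 1, beside 35.9%. Hells, a chromatin remodeller needed for DNA methylation, was at 0.545 FPKM in Scramble control and 5.13 in Cdk14-sh, from 20 and 188 fragments, 9.41-fold higher (5.92 to 15.8). Because Hells was below 1 FPKM in Scramble control, the filter fixed its direction in the counts of this role. Its activator Cdca7 was at 1.29 and 9.21 FPKM, from 21 and 150 fragments, 7.15-fold higher (4.51 to 11.9). The proteins of these genes act as a pair, and both genes were low in Scramble control and higher in Cdk14-sh. Their E2F-type matches are shown in 30 bases each. Of the 250-base stretches, 75 bases for Hells and 60 for Cdca7 lie inside the annotated gene. All 30 bases shown for Hells, with the match, are inside it, while the Cdca7 match lies before the annotated start. Capitals mark the match, on the gene's own strand for Hells (chr19:38930917-38930946) and on the other strand for Cdca7 (chr2:72476137-72476166).
Hells: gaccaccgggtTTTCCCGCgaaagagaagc
Cdca7: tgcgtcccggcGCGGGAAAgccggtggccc
Among the other genes of this role, Chaf1b, a subunit of the histone-depositing factor CAF-1, was at 1.49 and 3.81 FPKM, 2.56-fold higher (1.70 to 3.83). Atad2, a bromodomain ATPase, was at 8.71 and 15.8 FPKM, 1.81-fold higher (1.65 to 1.99). The histone chaperone Nasp was at 16.1 and 22.5 FPKM, 1.40-fold higher (1.26 to 1.55), and the histone mRNA binding protein gene Slbp at 15.4 and 21.2 FPKM, 1.38-fold higher (1.22 to 1.55). These are moderate ratios on well-counted genes. Casp8ap2, which is needed for histone gene expression, was level at 4.60 and 4.53 FPKM (0.788 to 1.24), and the histone ubiquitin ligase Ubr7 was at 17.4 and 8.96 FPKM, 1.95-fold lower (1.59 to 2.39).

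The genes of the G1/S switch were mostly lower. Ccne1, which encodes cyclin E1, was at 5.68 FPKM in Scramble control and 0.295 in Cdk14-sh, from 77 and 4 fragments, 19.2-fold lower (7.21 to 72.4). It lies on chromosome 7 from 38097984 to 38107534, on the minus strand. E2f1, the best known activator of S-phase genes, was at 2.05 and 0.997 FPKM, 2.06-fold lower (1.10 to 4.01). Dtl, the substrate receptor that targets the licensing factor Cdt1 for destruction, was at 2.65 and 1.45 FPKM, 1.83-fold lower (1.43 to 2.36). On the other side, Ccne2, the second cyclin E gene, was at 1.15 and 1.90 FPKM, with an interval that holds 1 (0.914 to 2.94); genes on the other strand overlap 17.4% of its exonic bases. The cyclin E1 and E2f1 genes were thus lower in the same library in which Mcm5, Mcm6, Prim1 and Tyms were higher. Ccne1 and E2f1 were below 1 FPKM in Cdk14-sh, and the other genes of this contrast in Scramble control. The filter therefore fixed the direction of each, and the contrast supports none.

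How far apart the subunits of one complex lay in level was looked at with the values known, for 10 complexes of the pathway. Among the 5 listed MCM genes, the highest level was 557.1 times the lowest in Scramble control and 25.4 times in Cdk14-sh. Among the 4 genes of DNA polymerase alpha and primase the ratio was 102.3 and 2.65, and among the 5 clamp loader genes 29.9 and 2.29. The span was smaller in Cdk14-sh for 9 of the 10 complexes, all but ribonucleotide reductase, for which it was 10.9 and 24.2. For some complexes the difference was small: the span was 2.16 and 1.97 for DNA polymerase delta, and 1.49 and 1.18 for GINS, of which 2 of 4 subunits had values. For others the order rested on genes with few fragments. Without Mcm5 and Mcm6 the span of the MCM genes was 11.9 in Scramble control and 25.4 in Cdk14-sh, the opposite order. Without Prim1 that of polymerase alpha and primase was 9.32 and 2.06, and without Rfc4 that of the clamp loader was 3.95 and 2.29, both in the same order as before. DNA polymerase epsilon had the widest span of the 10, 1884.8 and 540.4, set by its catalytic subunit gene Pole at 0.0176 and 0.123 FPKM, and without Pole it was 5.22 and 10.8, the opposite order, as for MCM. The loader genes Rfc1, at 1.70 and 3.90 FPKM, and Rfc3, at 1.96 and 4.22 FPKM, named here with their values known, were higher in Cdk14-sh as Rfc2 and Rfc4 were.

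**Figure D4:**
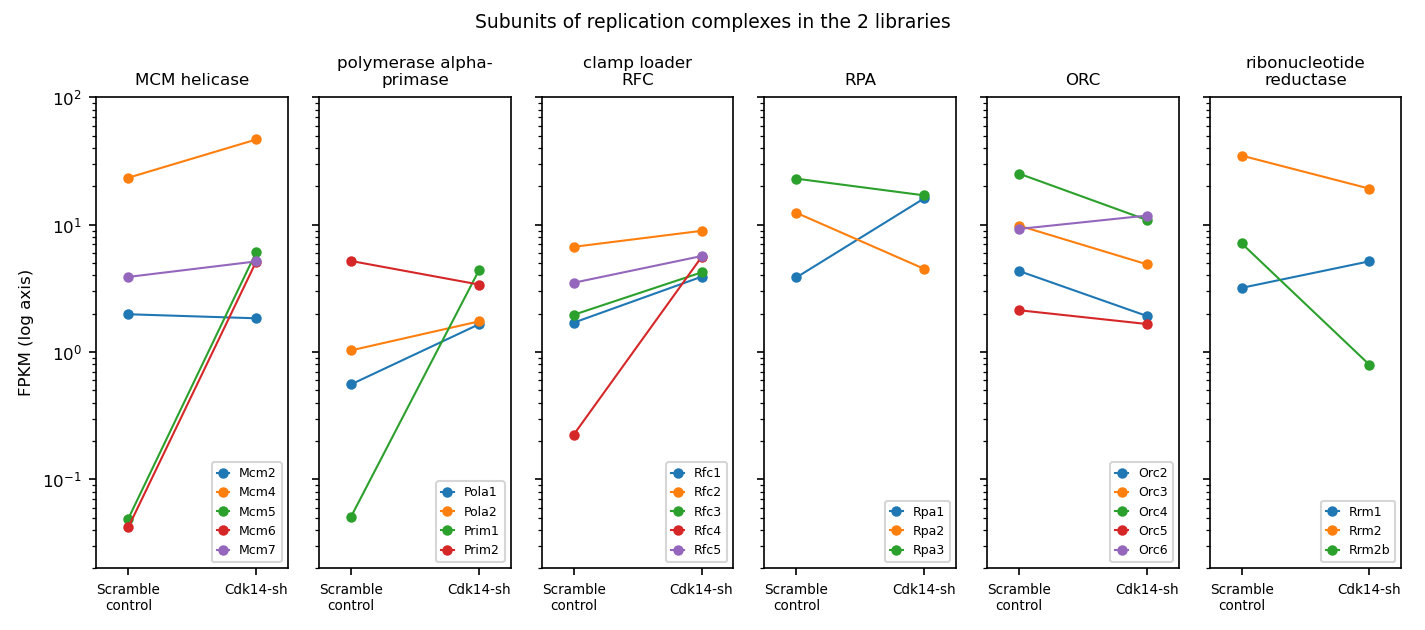
FPKM (log axis) of the subunits of 6 replication complexes in Scramble control and Cdk14-sh; each line is 1 gene, and each group is 1 library. The lines of Mcm5, Mcm6, Prim1 and Rfc4 climb from the bottom of the axis to the level of their partners, whereas those of Rpa1 and Rpa2, and of Rrm1 and Rrm2b, cross.

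Pathway genes outside the 48 were compared from a list of 99 of the same roles. Of these, 72 averaged 1 FPKM or more, with a median log2 ratio of 0.25. The 2-fold limit was reached by 14 in the higher direction (19.4%, beside 14.2% of all genes) and by 9 in the lower (12.5%, beside 13.5%). Of the higher, Lig1, Dnmt1 and Ccna2 were below 1 FPKM in Scramble control, and of the lower, Rrm2b was in Cdk14-sh. The filter fixed the direction for these genes, as for some members above. In licensing, 2 of 7 were above 0, beside 51.4% of all genes, and 5 were below. The origin recognition genes Orc4 (25.2 FPKM in Scramble control, 10.9 in Cdk14-sh), Orc3 (9.84 and 4.89) and Orc2 (4.33 and 1.92) were the lowest. The licensing factor Cdt1 was the highest, at 7.07 and 13.5 FPKM, 1.90-fold higher (1.51 to 2.41). In helicase activation, Donson was at 16.9 and 4.58 FPKM, 3.70-fold lower, and Mtbp, a partner of the firing factor Ticrr, at 1.25 and 3.99 FPKM, 3.18-fold higher (2.15 to 4.78).

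At the fork, 11 of 16 counted partners were above 0, beside 51.4% of all genes. Lig1, the ligase that seals Okazaki fragments, was at 0.0690 FPKM in Scramble control and 4.79 in Cdk14-sh, from 2 and 104 fragments, a ratio of 69.4 (14.1 to 435.5). Rpa1, the large subunit of RPA, was at 3.85 and 16.1 FPKM, 4.18-fold higher (3.37 to 5.17), the opposite of its partner Rpa2. Pole2, a subunit of the leading-strand polymerase, was at 20.4 and 6.14 FPKM, 3.32-fold lower (2.61 to 4.25), while Pole3 was at 6.35 and 15.9 FPKM. In nucleotide supply, the dUTPase gene Dut was 3.78-fold higher, at 2.93 and 11.1 FPKM, and Shmt1, which feeds thymidylate synthesis, 4.59-fold higher, at 2.09 and 9.57 FPKM. Rrm2b, the ribonucleotide reductase subunit used outside S phase, was at 7.14 and 0.794 FPKM, 8.99-fold lower (6.37 to 13.0). Among chromatin partners, the maintenance methyltransferase Dnmt1 was at 0.306 and 6.57 FPKM, from 12 and 247 fragments, a ratio of 21.5 (11.6 to 40.4). Of the 8 counted chromatin partners, 7 were above 0, beside 51.4% of all genes. Among the 7, Dnmt1 and Asf1b (0.924 and 2.19 FPKM) were below 1 FPKM in Scramble control, so the filter fixed their direction.

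Control genes of the S-phase transition differed in both directions. Wee1, the kinase that holds Cdk1 and Cdk2 inactive, was at 1.46 FPKM in Scramble control and 27.0 in Cdk14-sh, 18.5-fold higher (12.2 to 28.1). The opposing phosphatase Cdc25a was at 1.22 and 4.24 FPKM, 3.46-fold higher (2.52 to 4.84). Among the 19 counted genes of the switch, 4 were higher and 4 lower by the 2-fold limit, 21.1% each way, beside 14.2% and 13.5% of all genes. The retinoblastoma family genes Rb1 (12.8 and 4.93 FPKM) and Rbl2 (6.08 and 2.26) and the E2F gene E2f4 that works with them in resting cells (38.3 and 18.0) were the lowest, and the kinase inhibitor Cdkn1c (39.7 and 197.0 FPKM, 4.96-fold higher, 4.46 to 5.53) and the S and G2 cyclin Ccna2 (0.0721 and 3.07) the highest. An inhibitor of cell cycle kinases and a cyclin that drives S phase were thus both higher in the same library.

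Of the 55 genes of the G2/M list, which act in mitosis, 23 were counted, with a median log2 ratio of 0.20. By the 2-fold limit 6 were higher (26.1%, beside 14.2% of all genes) and 1 lower (4.35%, beside 13.5%). The higher genes Tacc3, Ccnb1 and Ect2, and Cenpa, named here with its values known, were below 1 FPKM in Scramble control. The lower gene, Gas2l3, was below 1 FPKM in Cdk14-sh. The filter thus fixed the direction for these genes, and the counts support no direction. Ccnb1, cyclin B1, was at 0.0466 and 7.43 FPKM, from 1 and 160 fragments, like Mcm5 near its lowest read number in Scramble control. Whether the replication and mitotic lists differ was not tested. Of the D-type cyclins, which act before the switch, Ccnd1 was at 12.8 and 37.6 FPKM, Ccnd2 at 41.8 and 134.8 and Ccnd3 at 2.19 and 8.49, each higher in Cdk14-sh, the reverse of Ccne1.

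Low fragment numbers and the markers of other cell types also differed between the 2 libraries. In Scramble control 7 of the 37 members rested on 3 fragments or fewer, and in Cdk14-sh 1 did, beside 12.5% and 9.71% of all genes with a known length. Basal markers were present in both libraries, with all 15 in the table and a summed level of 4761.3 FPKM in Scramble control and 3477.9 in Cdk14-sh. Of 14 counted, 3 were at least 2-fold lower (Cnn1, Tagln and Myh11) and 1 higher (Trp63), which is 21.4% and 7.14%. Over all counted genes, 13.5% were lower and 14.2% higher, and these shares stand beside each marker count that follows. Endothelial markers summed to 257.3 and 64.4 FPKM, with 9 of 12 counted at least 2-fold lower in Cdk14-sh and Kdr without an entry. Immune markers summed to 108.1 and 387.8 FPKM, with 4 of 6 counted at least 2-fold higher; Ptprc was at 0.482 and 0.247 FPKM, and Cd3e, Cd79a, Adgre1, Laptm5, Tyrobp and Lyz2 had no entry. Luminal markers summed to 1525.1 and 904.9 FPKM (Elf5 and Foxa1 without an entry), with 3 of 8 counted at least 2-fold lower and 1 higher. The 4 luminal markers below the filter, Esr1, Pgr, Kit and Prlr, were higher in Cdk14-sh. Fibroblast markers summed to 299.5 and 120.6 FPKM (Lum, Pdgfra and Dpt without an entry), but 3 of 6 counted were at least 2-fold higher and 2 lower, with a median log2 ratio of 1.02, so their sum and their median differ in sign. Pericyte markers summed to 127.3 and 60.0 FPKM (Kcnj8, Pdgfrb and Cspg4 without an entry), with 3 of 4 counted at least 2-fold lower and 1 higher. The part of cell composition or of low fragment numbers in the differences of the replication genes was not tested.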

How the data were processed

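The authors deposited 1 table of FPKM values with a column for each library. Bowtie 0.12.2, Subread 1.5.1 and featureCounts are named in, and taken from, the submitters' processing notes, as are GRCm38 and mm8, whose roles are not stated; strand use and the treatment of multiply mapped reads are not given in the sources used here. Column names abbreviate the sample titles. To recover fragments, values were multiplied by GENCODE M21 exonic lengths (GRCm38), taking the commonest product of value and length as 1 fragment. For 79.3% of 15195 genes with a length, and 33 of 37 members, both libraries gave multiples of 0.25 fragments (tolerance 0.01); other fragment numbers are approximate. Recovered fragments came to 112% of each total, and the cause was not tested. Numbers were rounded to whole fragments for intervals. Genes averaging 1 FPKM or more were counted, with a pseudocount of 1 FPKM and a 2-fold limit on the log2 scale. Where genes shared a symbol, that with the highest mean was taken. Promoter stretches are from RefSeq (GRCm38.p6) and end before the RefSeq start site, but some lie partly or wholly inside the GENCODE gene. The members, lists, complexes and motifs were chosen with earlier results of these data known. Named are all 48 members, Cdk14, up to 3 highest and 3 lowest genes of each further list, marker genes, and genes marked as named with their values known. Alternatives were other pseudocounts, scalings, filters and limits. Python 3.11.15, pandas 2.3.3 and scipy 1.17.1 were used, and the recovery was tested on simulated data.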

Additional observations from a re-analysis of the deposited data

How the results depend on the processing

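The median log2 ratio of the replication genes, 0.35, ranged from 0.17 to 0.40 under pseudocounts of 0.1 and 5 FPKM, 3 scalings of the Cdk14-sh values, no filter and the mean in place of the median. With a filter at 5 FPKM it reversed to -0.10, over 16 genes, since the filter leaves out the low members. The count of members at least 2-fold higher, 7, became 1 with that filter (11.7% of all genes), 11 with a limit of 1.5-fold (25.2%) and 16 where the counting interval excludes 1 (35.9%). The count at least 2-fold lower, 3, became 1 with a pseudocount of 5 FPKM (4.77% of all genes) or a limit of 4-fold (2.69%), 7 with a limit of 1.5-fold (24.5%) and 11 where the counting interval excludes 1 (33.2%). Under the 3 scalings the log2 ratio of all 37 genes moved by less than its counting error, put on the same scale with 1 FPKM added. It moved further for 6 genes with a pseudocount of 0.1 FPKM and for 12 with 5 FPKM, and none of these changed sign. No paired analysis was possible because each group has 1 library, and for the same reason no library could be left out. At this depth, genes at 1 to 3 fragments have ratios known only to within wide intervals.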
